A study of Homo sapiens with 6 samples.

Results

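Ribosome biogenesis, with MYC and RNA polymerase I, was followed through 43 genes that were chosen by symbol from the 54308 genes listed in the deposited table. They were MYC and its partner MAX, 7 genes of RNA polymerase I transcription, 9 proteins of small nucleolar ribonucleoproteins (snoRNPs), 10 factors of small-subunit assembly, 11 factors of large-subunit assembly and 4 abundant or regulatory nucleolar proteins. All 43 were listed, had a value in each of the 6 libraries and were tested. The study sequenced RNA of 143B cells, a human osteosarcoma line, to ask what changes when CNTNAP4, a neurexin-family transmembrane protein, is lost. Of 6 libraries, 3 came from vector control (VC) cells, which had received a vector plasmid and are labelled as control genotype. The other 3 came from CNTNAP4 knockout (KO) cells, which had received a CRISPR/Cas9 plasmid against CNTNAP4. The study's methods list a negative control plasmid with a guide RNA sequence of its own, and control-transfected cells were sorted too. The labels give a transfection of 48 h, the study's methods give a longer one, and the methods describe 2 KO clones, grown from single cells sorted by a red fluorescent protein. Which clone gave which library is not stated, so p-values measure only the spread between these RNA samples, and loss of CNTNAP4 and other differences between clones cannot be told apart. In bulk RNA, fewer cells that express a gene and less RNA per cell cannot be told apart either. Values are log2 signals, normalized by the authors across libraries, and no scaling by gene length is stated. The level of a gene was therefore not compared with that of another, and ranks or sums over genes use the signals as deposited.

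Ribosomes are built in the nucleolus. RNA polymerase I transcribes the precursor of the large ribosomal RNAs, snoRNPs guide its chemical modification, and assembly factors fold it, cut it and pack it with ribosomal proteins into a small and a large subunit. MYC, a transcription factor that binds DNA as a pair with MAX, is known to promote this programme in growing and tumor cells. MXD proteins, MXI1 and MNT also pair with MAX and are known to repress genes that MYC and MAX activate.

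MYC and MAX bind the palindromic E-box CACGTG. The motif was searched in RefSeq promoter windows (GRCh38.p14) of 300 bases, from 250 before to 50 after an annotated start. Of the 43 genes, 35 had a window, and in 14 of the 35 (40%) a window held the motif, whereas it was in 11.9% of the 13441 tested genes with a window and in 7.26% of all 35116 windows. Genes with windows at several starts count once. It was in 4 of 9 genes of small-subunit assembly, 4 of 9 of large-subunit assembly, 2 of 4 box H/ACA snoRNP genes, 2 of 3 box C/D genes, 2 of 4 nucleolar genes and none of 5 RNA polymerase I genes. Among the 14 genes with the motif, PES1 and NOP10 alone had a higher mean in KO, and all others had a lower mean. Windows are shown for UTP20 and GNL3, which were called lower, and for PES1 and NOP10, of which NOP10 was not called. They were chosen because the same letters stood close to the start of genes whose means differed in opposite directions. Each reads 5′ to 3′ on the strand of its gene, with the E-box in capitals.
UTP20 (chr12:101279855-101280154, plus strand): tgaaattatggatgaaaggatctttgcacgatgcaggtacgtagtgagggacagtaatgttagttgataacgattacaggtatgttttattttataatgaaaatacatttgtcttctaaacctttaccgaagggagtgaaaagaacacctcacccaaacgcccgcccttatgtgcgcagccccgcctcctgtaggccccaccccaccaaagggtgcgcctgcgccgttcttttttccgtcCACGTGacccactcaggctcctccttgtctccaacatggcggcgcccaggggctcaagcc
GNL3 (chr3:52685782-52686081, plus strand): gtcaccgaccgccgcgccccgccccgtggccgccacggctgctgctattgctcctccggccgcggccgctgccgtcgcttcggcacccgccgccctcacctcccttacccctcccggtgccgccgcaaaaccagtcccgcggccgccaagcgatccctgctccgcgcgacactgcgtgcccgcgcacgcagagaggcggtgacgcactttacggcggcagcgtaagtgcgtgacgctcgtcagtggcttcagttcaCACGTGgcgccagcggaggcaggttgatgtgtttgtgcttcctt
PES1 (chr22:30591861-30592160, minus strand): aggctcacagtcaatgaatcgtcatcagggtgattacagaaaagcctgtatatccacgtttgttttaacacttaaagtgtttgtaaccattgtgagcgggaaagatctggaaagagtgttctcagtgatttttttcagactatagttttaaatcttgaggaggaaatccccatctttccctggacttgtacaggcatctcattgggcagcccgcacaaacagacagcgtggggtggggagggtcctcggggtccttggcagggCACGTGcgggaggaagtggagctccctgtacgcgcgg
NOP10 (chr15:34343087-34343386, minus strand): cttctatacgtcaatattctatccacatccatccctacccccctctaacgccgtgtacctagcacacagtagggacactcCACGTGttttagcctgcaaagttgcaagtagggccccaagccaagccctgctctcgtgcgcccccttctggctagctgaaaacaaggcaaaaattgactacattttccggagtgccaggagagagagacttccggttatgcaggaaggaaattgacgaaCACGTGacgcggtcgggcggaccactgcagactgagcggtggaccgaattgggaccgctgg
The E-box was 10 bases before the start in UTP20, 6 bases after it in GNL3 and 13 bases after it in PES1. NOP10 had a pair, 170 and 11 bases before its start. In 13 of the 14 genes a motif lay within 50 bases of a start. It was in the windows of 5 of 9 genes called lower in KO, of 8 of 25 genes not called and of PES1, the 1 gene called higher that had a window. A match of letters is no evidence of binding, which these data did not measure.

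MYC itself was higher in KO, while most of the genes that build ribosomes had a lower mean. MYC was 1.66-fold higher, and of the other 42 genes 39 had a lower mean in KO, as the plot by library shows. A lower mean was also common over the whole table, in 11540 of 19306 genes tested. In limma's moderated test over 19306 genes, 13 of the 43 had an adjusted p under 0.05 and were lower, and 2, MYC and PES1, were higher. Genes past this threshold are referred to as called. Of all genes tested, 19.8% were called lower, 13.1% higher and 32.9% either way. The share of the 43 genes called in either direction, 34.9%, was thus near that of all genes, with 30.2% lower and 4.65% higher. All 43 lay in the upper 50% of mean signal, where the same fit called 22.5% of genes lower and 16.7% higher. Their median log2 fold change was -0.24, beside -0.13 over all genes tested and -0.087 over genes in the upper 50%. The 13 lower genes were UBTF, NOP58, GAR1, NOLC1, HEATR1, UTP20, BOP1, NOP16, RRS1, EBNA1BP2, NCL, GNL3 and LYAR. All KO values lay under all VC values in 31 genes and above them in 3, MYC, NOP10 and PES1. Of the 17698 genes with 6 values, 36.7% were separated downward and 22.6% upward in the same way.

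**Figure D1:**
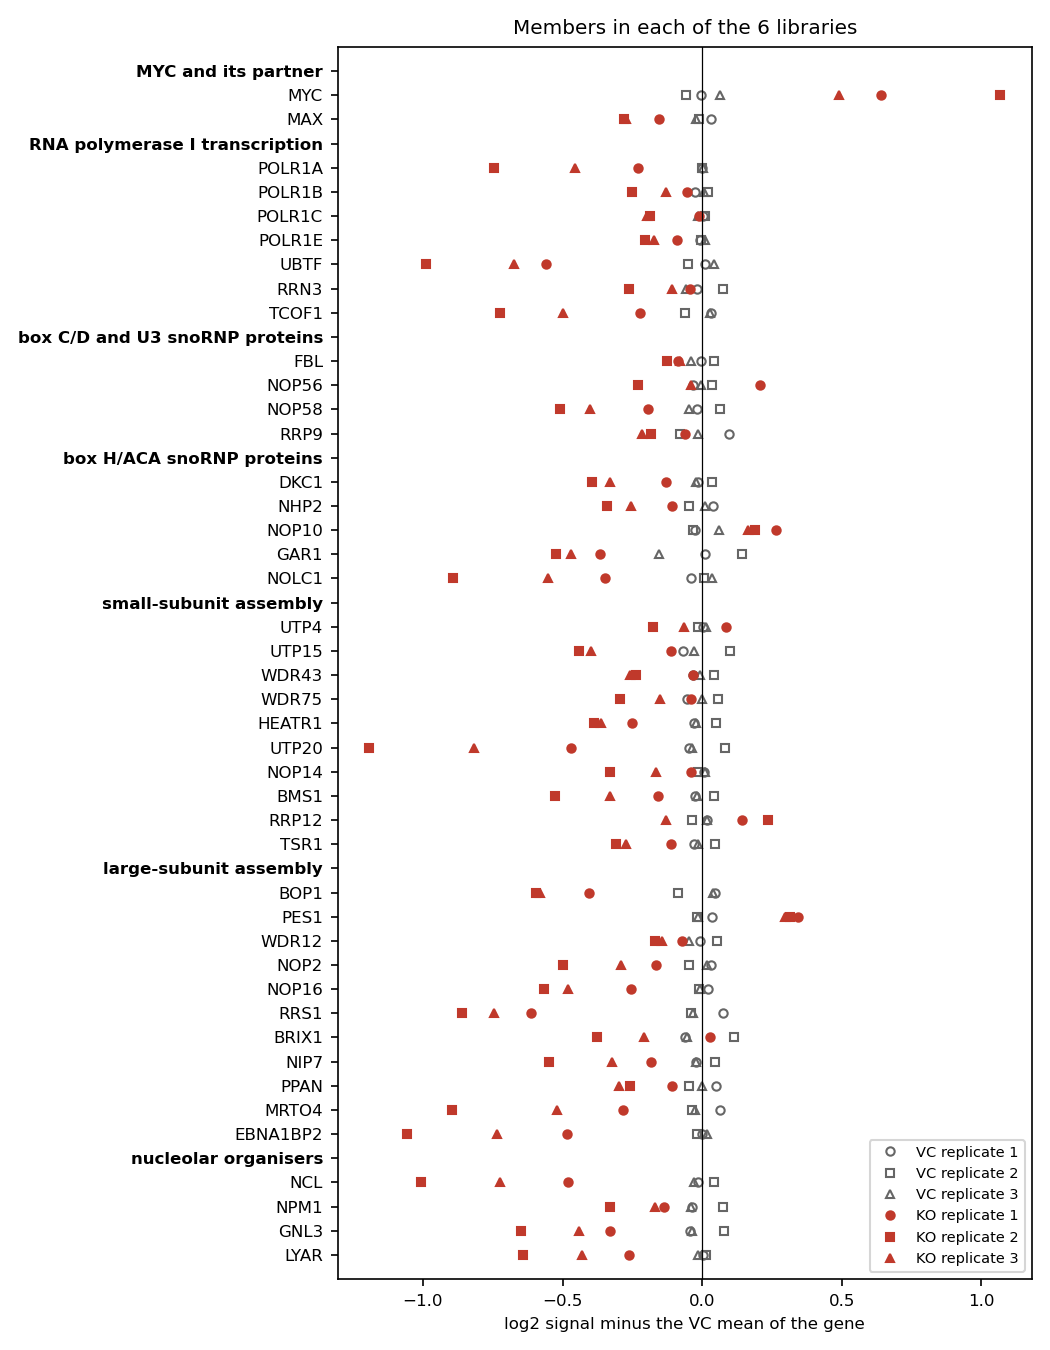
Log2 signal of each of the 43 genes in each library minus the mean of the VC libraries for that gene (x axis, log2 units), by role (y axis). Open grey symbols are VC, filled red symbols are KO, and circles, squares and triangles are replicates 1, 2 and 3. Grey symbols gather near 0, most red symbols lie to the left, with squares the lowest KO value in 35 genes, and MYC, NOP10 and PES1 lie wholly to the right.

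KO libraries were not equally far from VC. KO replicate 2 gave the lowest KO value in 35 of the 43 genes and KO replicate 3 in 8, and KO replicate 1 gave the highest in 40. Over the 42 genes other than MYC, the median deviation from the gene mean was 0.15, 0.18 and 0.11 for the VC libraries and 0.00058, -0.25 and -0.17 for the KO libraries, in the order of their numbers. Over all genes with 6 values it was 0.098, 0.033 and 0.065 for VC and 0.019, -0.094 and -0.087 for KO. So the library with the lowest members was also the lowest over all genes.

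The targeted gene could not be used as a check, because CNTNAP4 was listed with a value in 1 library, a VC library (-7.18). Summed linear signals of 7 osteoblast or mesenchymal markers, all detected, were 1427 to 1601 in VC and 1729 to 2145 in KO. Singly, 4 of the 7 were called higher and 1 lower (13.1% and 19.8% of all genes tested), with log2 fold changes from -0.81 to 0.58. Blood cell markers with a value, 4 in all, had sums of 21.6 to 23.0 in VC and 52.3 to 88.1 in KO. Of the 2 that were tested, CD68 was called higher (log2 fold change 1.66), and the other had a lower mean without a call (-1.18). Epithelial markers (3 of 4 with a value) summed to 3.09 to 3.49 in VC and 1.79 to 2.24 in KO, and endothelial markers (3 of 3) to 0.0221 to 0.0470 and 0.0350 to 0.0579. KRT20 had no value, and the part of these markers in the results was not tested.

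MYC had log2 signals of 1.58, 1.52 and 1.65 in VC and 2.22, 2.65 and 2.07 in KO, given here and for every gene in the order of replicates 1, 2 and 3. Each KO value was above each VC value, with 0.43 between the nearest, and KO replicate 2 was highest. The rise was 66.2% (log2 fold change 0.73, standard error 0.16, adjusted p = 0.0278 in limma). MYC lies on chromosome 8, where the median log2 fold change of 636 tested genes was -0.32, with 34.3% called lower and 9.43% called higher. Its call held in 3 of 6 fits that left out a library, with an adjusted p of up to 0.0834 in limma without VC replicate 1.

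MAX had log2 signals of 4.54, 4.50 and 4.49 in VC and 4.35, 4.23 and 4.23 in KO. The groups did not overlap, but MAX missed the threshold (log2 fold change -0.24, standard error 0.070, adjusted p = 0.0532 in limma). It lies on chromosome 14, where the median was -0.39 and 46.0% of genes were called lower.

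Other genes of the MYC network were more often higher than lower. Of 12, 6 were called higher (50%) and 1 lower (8.33%), beside 13.1% and 19.8% of all genes tested. The median log2 fold change was 0.42. MXD1, which pairs with MAX and represses, had log2 signals of 0.68, 0.82 and 0.77 in VC and 2.52, 3.00 and 2.29 in KO. Its groups were wide apart, and at 3.59-fold it had the largest difference among the genes called in the network (log2 fold change 1.84, standard error 0.19, adjusted p = 0.00847 in limma). MLX, which pairs with the glucose-responsive Mondo factors and with some MXD proteins, had 4.01, 3.98 and 4.07 in VC and 4.51, 4.62 and 4.53 in KO, again without overlap (log2 fold change 0.53, standard error 0.070, adjusted p = 0.0106 in limma). MXD1 and MLX were called in all 6 fits with a library left out. The other genes called in the network are named after their values were seen. MXI1 was 2.46-fold higher (2.12 ± 0.012 in VC and 3.42 ± 0.40 in KO, SD, n = 3, limma adjusted p = 0.0143). Likewise higher were the repressors MXD4 (1.67-fold, limma adjusted p = 0.0405) and MNT (1.62-fold, limma adjusted p = 0.0172). ZBTB17, also called MIZ1, a zinc-finger protein through which MYC can repress, was 1.70-fold higher (limma adjusted p = 0.0172). MGA, a large MAX-binding repressor, was the gene called lower (2.64 ± 0.026 in VC and 2.12 ± 0.16 in KO, SD, n = 3, limma adjusted p = 0.0198). Of these 5, none was called in more than 3 of the 6 fits with a library left out. The MYC relatives MYCN and MYCL, and MXD3, MLXIP and MLXIPL, were not called. For MYCN the values were low and spread widely, at -4.92 to -3.49 in VC and -7.35 to -4.22 in KO.

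**Figure D2:**
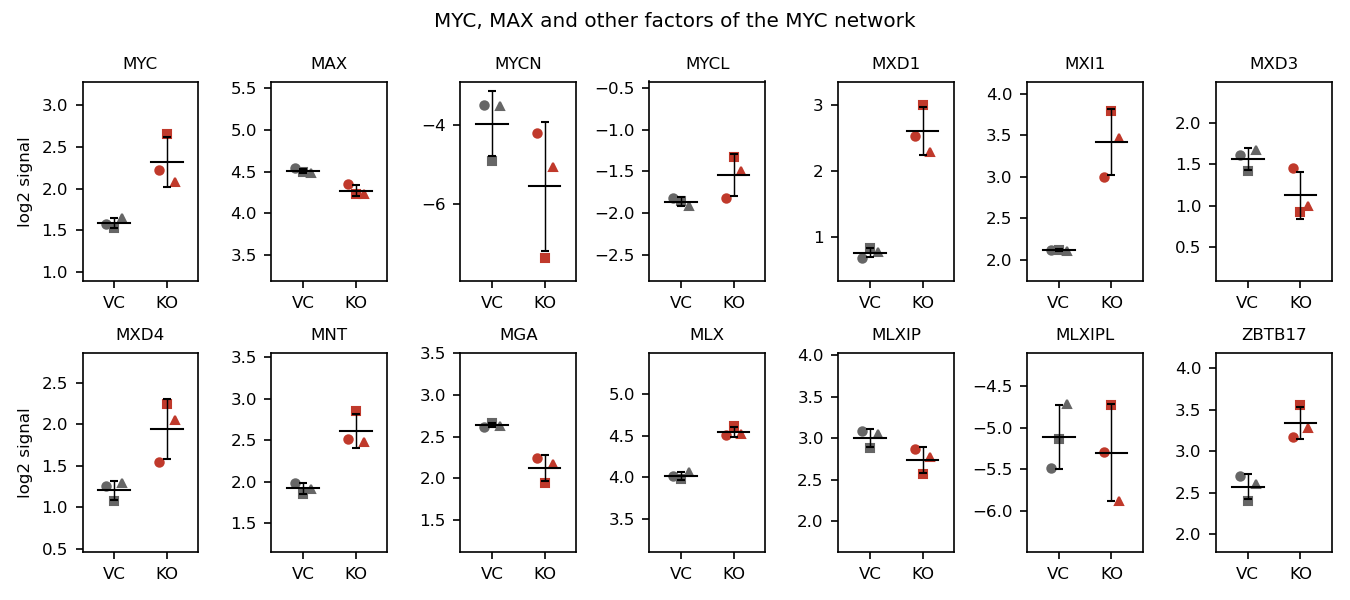
Log2 signal (y axis) of MYC, MAX and 12 other genes of the MYC network in VC (grey) and KO (red), with circles, squares and triangles for replicates 1, 2 and 3, a line at the mean and a bar of 1 SD (n = 3). Each panel has its own y range, widest for MYCN and MXD1, so heights should be read from the axes. MYC, MXD1, MXI1, MXD4, MNT, MLX and ZBTB17 were higher in KO, and MGA was lower.

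RNA polymerase I transcription had 1 of 7 genes called lower (14.3%, beside 19.8% of all genes tested), and the other 6 had lower means without a call (median log2 fold change -0.16). UBTF, which coats ribosomal DNA and keeps it open for the polymerase, had log2 signals of 5.16, 5.10 and 5.19 in VC and 4.59, 4.17 and 4.48 in KO. All KO values were under all VC values, by 0.51 at the nearest, and the signal was 40.1% lower (log2 fold change -0.74, standard error 0.13, adjusted p = 0.0160 in limma). TCOF1, treacle, which works with UBTF and is mutated in Treacher Collins syndrome, had 5.84, 5.75 and 5.84 in VC and 5.58, 5.08 and 5.31 in KO. Its groups did not overlap and it was just over the threshold (log2 fold change -0.48, standard error 0.14, adjusted p = 0.0508 in limma). POLR1A, the largest subunit of the enzyme, followed with 3.42 ± 0.0025 in VC and 2.95 ± 0.26 in KO (SD, n = 3, limma adjusted p = 0.0532). POLR1B, the second largest subunit, POLR1C, which RNA polymerase III shares, and POLR1E had smaller log2 fold changes of -0.15, -0.13 and -0.16. RRN3, which brings the polymerase to its promoter, had 4.11, 4.20 and 4.06 in VC and 4.08, 3.86 and 4.02 in KO, with groups that overlapped (log2 fold change -0.14, standard error 0.089, adjusted p = 0.273 in limma). Pseudogenes of RRN3 are listed on 3 rows of their own, all with values, so the counting could have split its reads.

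Of 13 other genes of the RNA polymerase I machinery, 3 were called lower (23.1%) and 2 higher (15.4%), shares close to the 19.8% and 13.1% of all genes tested. POLR2K, a small subunit common to RNA polymerases I, II and III, was at 5.70 ± 0.034 in VC and 5.06 ± 0.12 in KO (SD, n = 3, limma adjusted p = 0.0107) and lies on chromosome 8. POLR1D, which RNA polymerases I and III share, was 1.37-fold higher (4.24 ± 0.013 in VC and 4.70 ± 0.13 in KO, SD, n = 3, limma adjusted p = 0.0202). The other genes called were picked out afterwards, namely the common subunit POLR2L (log2 fold change -0.96), POLR1F (-0.38) and TAF1D (0.54). TAF1D belongs to SL1, the factor that selects the promoter, whose other subunits TAF1A (-0.15), TAF1B (0.072) and TAF1C (0.094) were not called.

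The 4 box C/D and U3 snoRNP proteins add methyl groups to ribosomal RNA or help to cut it. Among them 1 was called lower (25%, beside 19.8% of all genes tested). NOP58, a scaffold of the particle, had log2 signals of 6.40, 6.49 and 6.38 in VC and 6.23, 5.91 and 6.02 in KO. It was 22.5% lower without overlap (log2 fold change -0.37, standard error 0.10, adjusted p = 0.0464 in limma), and held in 1 of 6 fits with a library left out. RRP9, a protein of the U3 snoRNP, had 5.94, 5.76 and 5.83 in VC and 5.79, 5.66 and 5.63 in KO, with a small overlap (log2 fold change -0.15, standard error 0.085, adjusted p = 0.212 in limma). FBL, fibrillarin, is the methyltransferase of the particle and had 7.23 ± 0.040 in VC and 7.13 ± 0.025 in KO (SD, n = 3, limma adjusted p = 0.282). NOP56 pairs with NOP58 and had 7.19, 7.26 and 7.22 in VC and 7.43, 6.99 and 7.18 in KO. KO replicate 1 was above every VC library and KO replicate 2 below every one (log2 fold change -0.020, standard error 0.13, adjusted p = 0.914 in limma), and the sign turned when libraries were centred on their medians (0.068). Whether NOP56 and NOP58 differed from each other was not tested, and NOP56 lies on chromosome 20, where the median was -0.25.

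Box H/ACA snoRNP proteins turn uridine into pseudouridine and also serve telomerase. Of 5, 2 were called lower (40%, beside 19.8% of all genes tested), and the median was -0.28. GAR1 had log2 signals of 5.67, 5.80 and 5.50 in VC and 5.29, 5.14 and 5.19 in KO. Its groups were separate, and it was 26.9% lower (log2 fold change -0.45, standard error 0.10, adjusted p = 0.0287 in limma). NOLC1, the chaperone Nopp140 that binds these particles, had 6.98, 7.03 and 7.05 in VC and 6.67, 6.13 and 6.47 in KO and was 34.0% lower (log2 fold change -0.60, standard error 0.15, adjusted p = 0.0357 in limma). DKC1, dyskerin, the pseudouridine synthase, had 5.72 ± 0.032 in VC and 5.44 ± 0.14 in KO without overlap or call (SD, n = 3, limma adjusted p = 0.0644). NHP2 had 7.91, 7.82 and 7.88 in VC and 7.76, 7.53 and 7.62 in KO, all KO values under all VC values (log2 fold change -0.23, standard error 0.087, adjusted p = 0.0894 in limma). NOP10, the smallest core protein, had 7.32, 7.32 and 7.41 in VC and 7.62, 7.54 and 7.52 in KO. It alone in the group had all KO values above all VC values, by 0.10 at the nearest, and it was not called (log2 fold change 0.21, standard error 0.070, adjusted p = 0.0729 in limma).

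Small-subunit assembly had 2 of 10 genes called lower, none higher and a median of -0.21, and its share called lower, 20%, was that of all genes tested (19.8%). UTP20, a very large scaffold of the early precursor, had log2 signals of 4.11, 4.24 and 4.12 in VC and 3.69, 2.97 and 3.35 in KO. Each KO value was under each VC value, KO replicate 2 by far, and the fall of 43.6% was the largest among the 43 genes (log2 fold change -0.83, standard error 0.19, adjusted p = 0.0302 in limma). HEATR1, of the t-UTP complex, which is needed both for processing and for RNA polymerase I transcription, had 4.55, 4.63 and 4.56 in VC and 4.33, 4.19 and 4.22 in KO, without overlap (log2 fold change -0.33, standard error 0.073, adjusted p = 0.0264 in limma). The other t-UTP proteins were not called, with log2 fold changes of -0.32 for UTP15, -0.18 for WDR43, -0.16 for WDR75 and -0.052 for UTP4. UTP4 had 5.75, 5.74 and 5.76 in VC and 5.84, 5.58 and 5.69 in KO, KO libraries on both sides of VC (log2 fold change -0.052, standard error 0.089, adjusted p = 0.674 in limma), and its sign turned with libraries centred on their medians (0.036). The GTPase BMS1 (-0.34), its relative TSR1 (-0.23) and NOP14 (-0.18) had separate groups and no call. BMS1 has 20 pseudogenes in the table, 7 with a value, and an antisense gene of NOP14 is listed, so their signals are less sure. RRP12, which helps subunits leave the nucleus, was the gene of this group with a higher mean, at 4.32 to 4.37 in VC and 4.23 to 4.59 in KO (limma adjusted p = 0.594).

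Large-subunit assembly had 4 of 11 genes called lower (36.4%) and 1 higher (9.09%), beside 19.8% and 13.1% of all genes tested. The median was -0.35. RRS1, which helps to bring in the particle of the 5S ribosomal RNA, had log2 signals of 6.18, 6.06 and 6.07 in VC and 5.49, 5.24 and 5.36 in KO. Its groups were 0.57 apart at the nearest, the widest gap among the 43 genes, and it was 40.0% lower (log2 fold change -0.74, standard error 0.092, adjusted p = 0.00985 in limma). RRS1 was the member called in all 6 fits with a library left out, with an adjusted p of at most 0.0452 in limma, and it lies on chromosome 8. Reads could also come from RRS1-AS1, an antisense gene with a row of its own. EBNA1BP2, which early large-subunit precursors need, had 7.25, 7.23 and 7.27 in VC and 6.77, 6.20 and 6.52 in KO and was 40.9% lower (log2 fold change -0.76, standard error 0.16, adjusted p = 0.0228 in limma). NOP16 was 26.0% lower, at 5.42 ± 0.018 in VC and 4.99 ± 0.16 in KO (SD, n = 3, limma adjusted p = 0.0293).

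BOP1, PES1 and WDR12 form the PeBoW complex, which large-subunit processing needs, and they gave a call in each direction. BOP1 had log2 signals of 6.44, 6.31 and 6.43 in VC and 5.99, 5.80 and 5.81 in KO and was 30.6% lower (log2 fold change -0.53, standard error 0.088, adjusted p = 0.0152 in limma). PES1, pescadillo, had 4.83, 4.78 and 4.78 in VC and 5.14, 5.11 and 5.09 in KO and was 24.7% higher (log2 fold change 0.32, standard error 0.063, adjusted p = 0.0209 in limma). WDR12 had 4.32, 4.38 and 4.28 in VC and 4.25, 4.16 and 4.18 in KO, a narrow separation without a call (log2 fold change -0.13, standard error 0.070, adjusted p = 0.203 in limma). BOP1 is on chromosome 8, with a median of -0.32. PES1 is on chromosome 22, where 447 tested genes gave 0.29 as their median log2 fold change, with 37.8% called higher and 3.36% lower. PES1 lay close to that median, while 36 of the 43 genes, BOP1 and RRS1 among them, lay under the median of their own chromosome, as the plot of fold changes shows. The part of the chromosomes in these differences was not tested.

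The remaining 5 genes of large-subunit assembly had lower means and no call. MRTO4, a relative of a ribosomal stalk protein that it precedes on the subunit, had 6.04 ± 0.056 in VC and 5.48 ± 0.31 in KO and a limma adjusted p of 0.0517 (SD, n = 3). NIP7, the RNA methyltransferase NOP2 and PPAN had log2 fold changes of -0.35, -0.32 and -0.22, all without overlap. PPAN shares sequence with the listed read-through gene PPAN-P2RY11. BRIX1 had 6.63, 6.81 and 6.64 in VC and 6.72, 6.32 and 6.48 in KO, and KO replicate 1 lay within the VC range (log2 fold change -0.19, standard error 0.13, adjusted p = 0.300 in limma).

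**Figure D3:**
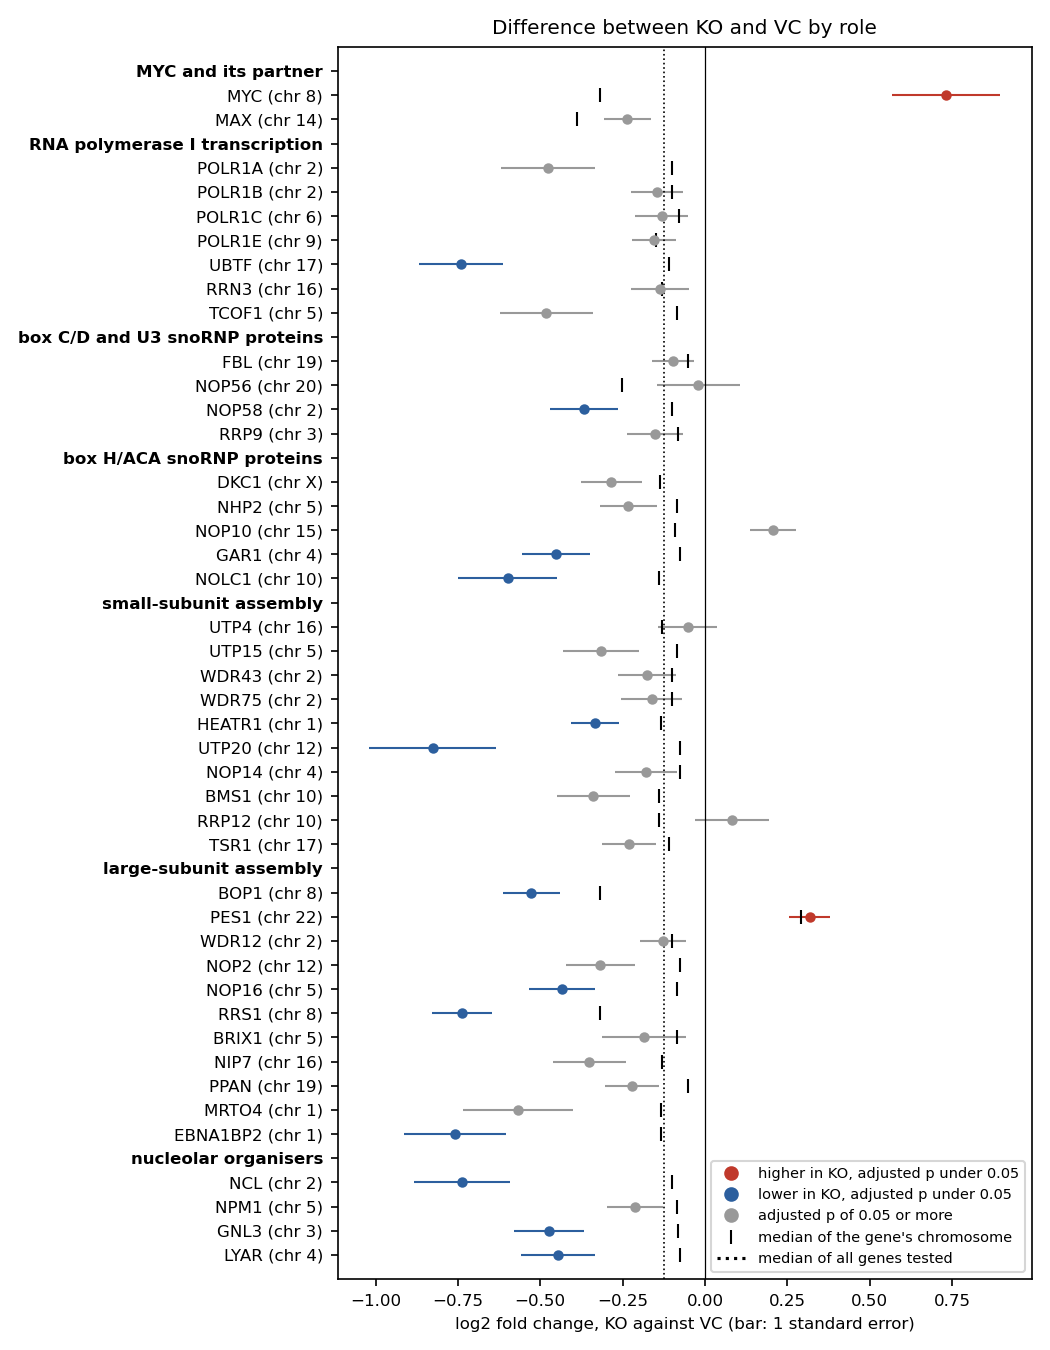
Log2 fold change of KO against VC (x axis) for the 43 genes by role, with bars of 1 standard error from limma. Blue and red points had an adjusted p under 0.05, grey points did not, black ticks are the median of tested genes on the chromosome named beside each gene, and the dotted line is the median of all genes tested (-0.13). In 36 genes the point lies left of its tick, MYC lies far to the right of its tick, and PES1 lies beside it.

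Of 4 abundant or regulatory nucleolar proteins, 3 were called lower (75%, beside 19.8% of all genes tested), and the median was -0.46. All KO values lay under all VC values in each of the 4, as in 36.7% of genes with 6 values. NCL, nucleolin, which binds ribosomal RNA and nucleolar chromatin, had log2 signals of 9.70, 9.76 and 9.68 in VC and 9.23, 8.71 and 8.99 in KO and was 40.0% lower (log2 fold change -0.74, standard error 0.15, adjusted p = 0.0212 in limma). GNL3, nucleostemin, a GTPase of dividing and stem cells, had 6.91, 7.03 and 6.91 in VC and 6.62, 6.30 and 6.51 in KO and was 28.0% lower (log2 fold change -0.47, standard error 0.11, adjusted p = 0.0278 in limma). LYAR, a zinc-finger protein of the nucleolus, was 26.6% lower, at 5.78 ± 0.014 in VC and 5.34 ± 0.19 in KO (SD, n = 3, limma adjusted p = 0.0358). NPM1, nucleophosmin, had 10.11, 10.22 and 10.10 in VC and 10.01, 9.81 and 9.97 in KO, a narrow separation without a call (log2 fold change -0.21, standard error 0.086, adjusted p = 0.108 in limma). All 50 NPM1 pseudogenes of the table were without a value.

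Introns of several of these genes carry snoRNA genes, which are made from the host's transcript. On the same strand in GENCODE release 29 there were 6 within GNL3, 5 within NOP56, 4 within NOP58, 3 each within NCL and WDR43 and 2 each within DKC1, TSR1 and PPAN. Of these 8 hosts 3 were called lower (median log2 fold change -0.26), and of the 35 other genes 10 were called lower and 2 higher (median -0.24). The shares over all genes tested were 19.8% lower and 13.1% higher. The levels of the snoRNAs themselves were not compared here.

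Assembly factors outside the 43 genes also had lower medians than all genes tested. Of 43 other genes of small-subunit assembly, 13 were called lower (30.2%) and 1 higher (2.33%), beside 19.8% and 13.1% of all genes tested. Their median log2 fold change was -0.27. Those with the smallest p were UTP23, on chromosome 8 (log2 fold change -0.79, standard error 0.099, adjusted p = 0.0100 in limma), and NGDN, on chromosome 14 (log2 fold change -0.57, standard error 0.095, adjusted p = 0.0152 in limma). The higher gene, looked up afterwards, was NOB1, the nuclease that forms the mature end of the small-subunit RNA (log2 fold change 0.62, standard error 0.12, adjusted p = 0.0196 in limma). Of 47 other genes of large-subunit assembly, 13 were called lower (27.7%) and 5 higher (10.6%), with a median of -0.24. DDX24, an RNA helicase on chromosome 14, was lower (log2 fold change -0.61, standard error 0.090, adjusted p = 0.0126 in limma), and RSL24D1 was higher (log2 fold change 0.73, standard error 0.12, adjusted p = 0.0157 in limma). The other higher genes, also named after their values were seen, were NOP53 (0.55), the export adaptor NMD3 (0.54), the cytoplasmic GTPase EFL1 (0.50) and ZNF622 (0.39). Of 10 factors that assemble snoRNPs, 1 was called lower and 1 higher (10% each), under the shares of all genes tested (19.8% and 13.1%). TAF9 was higher (log2 fold change 0.35, standard error 0.082, adjusted p = 0.0310 in limma) and RPAP3 lower (log2 fold change -0.28, standard error 0.082, adjusted p = 0.04999 in limma).

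How many of the 43 genes were called depended on the libraries and on the variance model, as did the background. Of the 15 called, RRS1 kept its call in all 6 fits with a library left out, MYC, UBTF and BOP1 in 3 and the other 11 in 1 or 2, with a highest adjusted p in limma of 0.123, for NOP58 without KO replicate 3. Without VC replicates 1, 2 and 3 in turn, 1 lower and 0 higher, 3 lower and 0 higher, and 1 lower and 0 higher were called, against 3.47% lower and 4.07% higher, 7.45% lower and 5.62% higher, and 3.05% lower and 3.51% higher of all genes. Leaving out KO replicate 1 gave 26 lower and 2 higher (31% lower and 15.9% higher of all genes), KO replicate 2 gave 9 lower and 2 higher (14.3% lower and 9.3% higher) and KO replicate 3 gave 1 lower and 1 higher (5.54% lower and 5.32% higher).

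Other models moved the counts as well. Moderation with a trend and robust estimation gave 26 lower and 3 higher (25.5% lower and 15.5% higher of all genes). Adding 1 to the linear signal gave 27 lower and 3 higher (24.8% lower and 15.5% higher), and a fit on the upper 50% of mean signal alone 26 lower and 3 higher (35.6% lower and 23.4% higher). With genes measured in all 6 libraries there were 17 lower and 2 higher (23.5% lower and 14.9% higher), and with no filter 13 lower and 2 higher (18.2% lower and 12.2% higher). Without moderation of variances there were 11 lower and 2 higher (12.6% lower and 10.3% higher), and with a replicate block 1 lower and 0 higher (5.68% lower and 3.48% higher). Centring libraries on their medians gave 12 lower and 3 higher, with a nearly even split of all genes (15.9% lower and 16.3% higher), and a further quantile normalization 13 lower and 2 higher (17.1% lower and 16% higher). The median of all genes moved from -0.13 to -0.038 with centring and that of the 43 genes from -0.24 to -0.15, when 37 rather than 39 had a lower mean. Of all 19306 genes tested, 10225 rather than 11540 then had a lower mean. With 1 added to the linear signal the median of all genes was -0.023 and that of the 43 genes -0.23. The log2 fold change of MYC ranged from 0.56 to 0.85 over all these settings, but MYC was not called without moderation (limma adjusted p = 0.0553), with a replicate block (0.0710) or without any of the VC libraries (up to 0.0834). Without moderation the 2 higher genes were PES1 and NOP10.

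**Figure D4:**
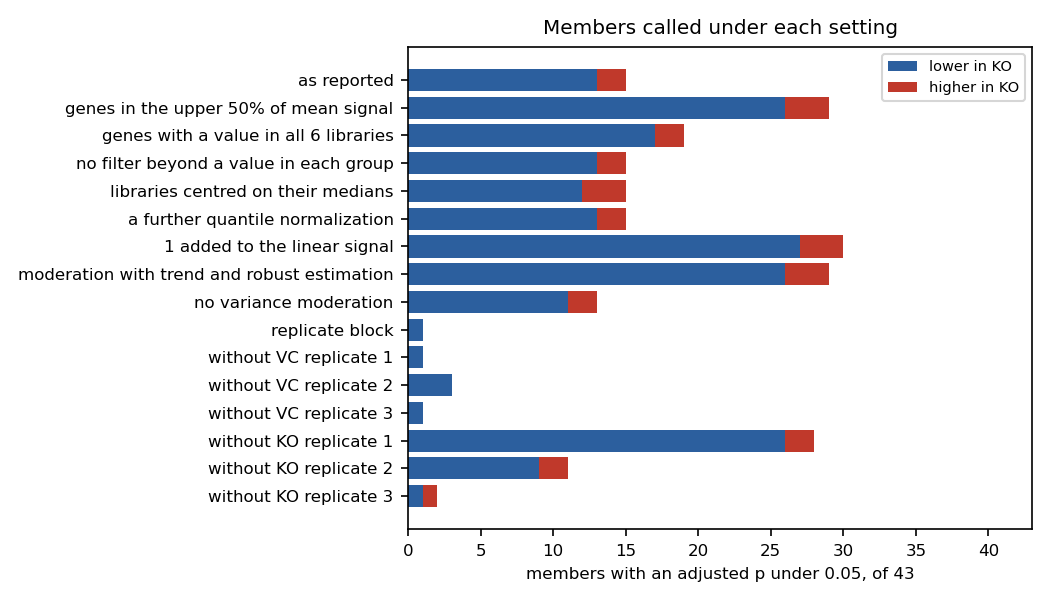
Number of the 43 genes with an adjusted p under 0.05 (x axis) as reported in the text above and under each other setting (y axis), split into lower (blue) and higher (red) in KO. The bar reaches 15 as reported, 30 with 1 added to the linear signal, and 1 with a replicate block or without VC replicate 1 or 3.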

How the data were processed

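RNA of 143B cells was measured in 3 VC and 3 KO libraries, grouped by their labels. The authors deposited 1 table of log2 signals, already quantile-normalized between libraries and without pooled replicates. Depth, annotation and the unit from which the logarithm was taken are not given in the sources used here, so no counting error or detection limit could be set. Library preparation was a stranded mRNA kit per the labels and total RNA sequencing per the study's methods. Submitters' processing notes name CASAVA, STAR, Partek and GRCh38.p13, and the methods name CLC Genomics and Partek software. Whether reads were counted by strand is not stated. Of 54308 genes listed, 29611 had no value in any library, and an empty cell was taken as missing.

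The 19306 genes with at least 2 values per group were fitted with limma 3.58.1 in R 4.3.3 (2 groups, no covariate, empirical Bayes moderation without a trend, two-sided). P-values were adjusted by Benjamini-Hochberg over all genes tested, and an adjusted p under 0.05 was the threshold. The fit was tested on simulated data. With 3 against 3 libraries, a permutation test of a single gene cannot go below p = 0.1 and was not used. Tables and figures were made in Python 3.11.15 with pandas 2.3.3 and matplotlib 3.10.9. Members and lists were chosen with earlier results of these data known, so lists were described by counts and medians without a test. Every member could be named, with values in every library for MYC, MAX and, in each role, the 2 genes of smallest and the 1 of largest p, and some further members were given in full. Of the other lists the 2 genes of smallest p were named. Promoter windows came from RefSeq and were matched by symbol, and snoRNA positions came from GENCODE release 29. POLR1G was not analysed here. Alternatives were other filters on low values, 1 added to the linear signal, median centring, a further quantile normalization, other variance moderation, a replicate block and leaving out each library.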

Additional observations from a re-analysis of the deposited data

How the results depend on the processing

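The limma fit given in the Results above called 6354 of all genes and 15 of the 43, and here "as reported" refers to that fit. Across single genes, 787 of the values under alternative settings kept their direction and their side of the threshold, 155 lost and 68 gained a call, and 7 changed sign. Those were NOP56 and UTP4 with libraries centred on their medians (0.068 and 0.036) and MLXIPL with a further quantile normalization (0.0038), and the same genes with libraries left out in turn, where the log2 fold change ranged from -0.13 to 0.084 for NOP56, from -0.12 to 0.010 for UTP4 (both highest without KO replicate 2) and from -0.48 to 0.10 for MLXIPL (0.0090 without VC replicate 3, highest without KO replicate 3), none of them called as reported. Only RRS1 among the 43 genes was called in every setting run.

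The fit on genes in the upper 50% of mean signal called 5702 of all 9653 genes in it and 29 of the 43. Among the 29 were 2 of 2 for MYC and MAX, 3 of 7 RNA polymerase I and 5 of 5 box H/ACA genes. So were 5 of 10 small-subunit and 9 of 11 large-subunit genes. In the other lists it called 27 of 42 small-subunit, 31 of 47 large-subunit, 7 of 10 snoRNP assembly, 8 of 14 exosome and 10 of 20 RNA polymerase III genes. Genes with all 6 values gave 2 of MYC and MAX and 3 RNA polymerase I genes, with 6785 of all 17698 called. No filter gave 1 snoRNP assembly factor, with 6262 of all 20642 genes called. Centring on medians gave 0 box C/D genes, with 6207 of all 19306 called. With 1 added to the linear signal, 7773 of all 19306 genes were called. The counts were then 30 of the 43, 2 of MYC and MAX, 4 RNA polymerase I, 2 box C/D, 5 box H/ACA, 4 small-subunit, 9 large-subunit, 6 snoRNP assembly, 8 exosome and 8 RNA polymerase III genes. With a trend and robust moderation, 7923 of all 19306 genes were called. The counts were then 29 of the 43, 2 of MYC and MAX, 3 RNA polymerase I, 5 box H/ACA, 5 small-subunit, 9 large-subunit, 26 other small-subunit, 29 other large-subunit, 6 snoRNP assembly, 8 exosome and 10 RNA polymerase III genes. Without moderation, 4432 of all 19306 genes were called. The counts were then 2 RNA polymerase I, 0 box C/D, 1 small-subunit, 3 other RNA polymerase I, 9 other small-subunit and 11 other large-subunit genes. The cause of these moves was not tested. The split of all genes called was 3828 lower and 2526 higher as reported, 3066 and 3141 with centring, and 3301 and 3092 with a further quantile normalization.

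VC and KO libraries carry the same replicate numbers, but deviations of same-numbered libraries from their group means correlated at 0.023, 0.0051 and -0.0074 over 17698 genes, and not every library correlated best with its own number, so the numbers were not taken to pair the samples. A replicate block called 1740 of all genes, 1 of the 43 genes (1 large-subunit gene, with 0 in each of MYC and MAX, RNA polymerase I, box C/D, box H/ACA, small-subunit and nucleolar genes), 2 of the MYC network, 0 other RNA polymerase I, 1 other small-subunit, 1 other large-subunit, 0 snoRNP assembly, 0 exosome and 1 RNA polymerase III gene.

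With each library left out in turn, counts ranged from 1223 to 8669 for all genes, 1 to 28 for the 43 genes, 0 to 2 for MYC and MAX, 0 to 3 for RNA polymerase I, 0 to 1 for box C/D, 0 to 4 for box H/ACA, 0 to 6 for small-subunit, 1 to 9 for large-subunit and 0 to 3 for nucleolar genes. For the other lists they ranged from 2 to 9 in the MYC network, 0 to 6 in RNA polymerase I, 1 to 24 in small-subunit, 0 to 30 in large-subunit, 0 to 5 in snoRNP assembly, 0 to 7 in exosome and 0 to 10 in RNA polymerase III genes.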

Other observations

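RNA polymerase III makes the 5S ribosomal RNA and transfer RNAs. Its genes and those for trimming of ribosomal RNA were called in both directions, at shares near or under those of all genes. The RNA exosome is the complex that trims and degrades RNA from its 3′ end. Of 14 exosome genes, 3 were called lower (21.4%) and 1 higher (7.14%), beside 19.8% and 13.1% of all genes tested. The median log2 fold change was -0.18. EXOSC5, a ring subunit, was higher, at 4.74 ± 0.057 in VC and 5.19 ± 0.021 in KO (SD, n = 3, limma adjusted p = 0.0128). EXOSC3, a cap subunit, was lower, at 5.24 ± 0.032 in VC and 4.72 ± 0.20 in KO (SD, n = 3, limma adjusted p = 0.0291). The other genes called lower, named after their values were seen, were EXOSC6 (-0.62) and EXOSC7 (-0.26).

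Of 20 genes of RNA polymerase III and its factors, 3 were called lower (15%) and 2 higher (10%), with a median of -0.15. Both shares were under the 19.8% and 13.1% of all genes tested. BRF1, a subunit of the initiation factor TFIIIB, was lower, at 3.08 ± 0.13 in VC and 2.27 ± 0.15 in KO (SD, n = 3, limma adjusted p = 0.0120), and lies on chromosome 14, where the median was -0.39. POLR3D, a subunit of the enzyme, was higher, at 3.14 ± 0.061 in VC and 3.68 ± 0.11 in KO (SD, n = 3, limma adjusted p = 0.0148), and lies on chromosome 8, where the median was -0.32. The TFIIIB subunit BDP1 (-0.55) and GTF3C4 of TFIIIC (-0.48) were also lower and POLR3C (0.27) higher, chosen after their values were seen. The E-box CACGTG was in a promoter window of 47.2% of 36 other small-subunit and 26.8% of 41 other large-subunit assembly genes. It was in 37.5% of 16 RNA polymerase III genes and 27.3% of 11 other MYC network genes. For 12 exosome genes the share was 8.33%, for 13 other RNA polymerase I genes 7.69% and for 8 snoRNP assembly factors 12.5%. These stand beside 11.9% of tested genes with a window.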
